A study of Mus musculus with 18 samples.

Results

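Rasgef1b, Tnfaip2 and Plek held the extended regions with the most summits in an ATAC-seq catalog of mouse macrophages, apart from that of Sfi1. They were chosen by their summit counts. An extended region is a stretch in which reference peaks, each widened by 700 bp on both sides, touch and are joined, and the main extended regions of these genes hold 29 or more summits, the points of highest signal within peaks. These main regions held 124 summits in 73 reference peaks, of 84660 summits in 82391 peaks and 59617 extended regions in the whole catalog. The wider windows of the genes, taken as the gene body plus 50000 bp around the most upstream annotated start, touched 49 extended regions, 156 peaks and 209 summits.

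The catalog came from bone marrow-derived macrophages (BMDM) of wild type mice, which the methods describe as male C57/BL6 animals 6 to 8 wk old. All cultures received DMSO for 1 h, the vehicle of the kinase inhibitors that the study examined elsewhere. Next came no stimulus, LPS, a bacterial ligand of TLR4, or IL-4, each stimulus at 10 ng/mL for 30 min, 1 h, 2 h or 4 h, which gave 18 libraries in 9 groups of 2. The 3 deposited lists pool all of these libraries and hold no value per library, so a domain cannot be assigned to untreated, LPS or IL-4 cells, no comparison between groups was possible, and the depth of each library is unknown. The macrophage label was checked against reference peaks within 1000 bp of annotated starts. All 8 macrophage markers had one, among them Csf1r, Spi1 and Cd68, against 4 of 16 markers of T, B, erythroid, neutrophil and fibroblast cells (Cd3d, Ms4a1, Col1a1 and Pdgfra) and 12402 of 21938 protein-coding genes (56.5%).

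ATAC-seq uses the Tn5 transposase to insert adapters where DNA is not shielded by nucleosomes, so signal usually gathers in short peaks at promoters and enhancers. In macrophages, LPS acts through TLR4 on NF-kB, AP-1 and IRF factors, whereas PU.1, C/EBP and RUNX factors mark the lineage. Rasgef1b encodes a guanine nucleotide exchange factor for Ras-like GTPases that is induced by Toll-like receptor ligands, Tnfaip2 encodes a TNF-inducible relative of the exocyst subunit Sec6 that takes part in membrane nanotube formation, and Plek encodes pleckstrin, a substrate of protein kinase C in blood cells.

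The sequence under the domains is shown by the summit nearest the gene start and by the summit with the most different motifs in each domain, as 201 bases around the summit, mm10, on the strand of the gene. Capitals mark matches to 12 motifs searched on both strands. Windows holding a UTR were left out. The first set shows where each domain begins on the side of the promoter. The Rasgef1b summit (chr5:99240510-99240710, score 134) is intronic and holds a RUNX (AACCACA) and a C/EBP (TTGCNNAA) match, both on the opposite strand. The Tnfaip2 summit (chr12:111441694-111441894, score 1773) lies 675 bp before the start and the Plek summit (chr11:16978394-16978594, score 737) in an intron, and each holds a PU.1/ETS match (GAGGAAGT).
Rasgef1b: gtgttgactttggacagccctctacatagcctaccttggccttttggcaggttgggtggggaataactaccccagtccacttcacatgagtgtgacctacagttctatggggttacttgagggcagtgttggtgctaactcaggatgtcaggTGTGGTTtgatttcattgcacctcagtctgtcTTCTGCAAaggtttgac
Tnfaip2: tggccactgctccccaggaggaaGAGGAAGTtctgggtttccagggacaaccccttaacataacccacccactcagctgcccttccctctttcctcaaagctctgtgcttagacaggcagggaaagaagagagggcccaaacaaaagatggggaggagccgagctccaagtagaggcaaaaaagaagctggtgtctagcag
Plek: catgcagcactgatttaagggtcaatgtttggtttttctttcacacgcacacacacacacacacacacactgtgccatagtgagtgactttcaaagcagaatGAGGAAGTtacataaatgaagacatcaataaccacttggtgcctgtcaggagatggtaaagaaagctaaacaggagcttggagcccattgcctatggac

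The second set shows the summit with the most different motifs, 3 in Rasgef1b and 2 in the others, taking the best scored where 4 Tnfaip2 and 3 Plek summits tied. In the Rasgef1b intron (chr5:99225339-99225539, score 367) a C/EBP match precedes a STAT6 match that overlaps a RUNX match, so the pair stands in 1 run of capitals. Beyond the end of Tnfaip2 (chr12:111455934-111456134, score 1670) an NF-kB match is followed by an AP-1 match (TGACTCA) on the opposite strand. The Plek intron (chr11:16975343-16975543, score 583) holds a RUNX match on the opposite strand and an IRF match.
Rasgef1b: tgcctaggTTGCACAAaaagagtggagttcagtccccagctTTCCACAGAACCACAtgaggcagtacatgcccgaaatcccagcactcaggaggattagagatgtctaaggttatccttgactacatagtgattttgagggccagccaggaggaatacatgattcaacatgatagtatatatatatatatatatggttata
Tnfaip2: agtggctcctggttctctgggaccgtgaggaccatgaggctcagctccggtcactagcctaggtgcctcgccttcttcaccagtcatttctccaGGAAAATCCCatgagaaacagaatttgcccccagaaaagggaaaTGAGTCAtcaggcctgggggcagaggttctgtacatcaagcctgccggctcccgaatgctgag
Plek: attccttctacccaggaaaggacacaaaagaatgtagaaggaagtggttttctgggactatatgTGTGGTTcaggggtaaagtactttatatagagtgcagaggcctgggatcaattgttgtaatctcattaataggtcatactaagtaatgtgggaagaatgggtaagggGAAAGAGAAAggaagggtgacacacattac

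The Rasgef1b domain was the largest of the 3. It covered chr5:99212439-99241549 (29111 bp) on the minus strand with 59 summits in 28 peaks, and peaks filled 79.1% of its length, more than in any other of the 52 extended regions with 10 or more summits. Summits followed each other at a median of 429 bp, and peaks were separated by a median of 105 bp and at most 606 bp. The domain did not begin at the promoter. The principal transcript, Rasgef1b-201, starts at 99252927 and ends at 99217426, and the outermost domain peak stopped 12078 bp short of that start but reached 4287 bp past the gene end. Of the 59 summits, 46 were intronic, 2 lay in coding exons, 4 in the 3' UTR and 7 downstream of the gene.

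Low scores ran through the transcribed part of the Rasgef1b domain. The score that accompanies each summit is the authors' own value on a scale that is not stated, and over all summits its median was 737 with 486 and 1153 as the 25th and 75th percentiles. In the Rasgef1b domain the scores ran from 114 to 1877 with a median of 282 (95% order-statistic interval 242 to 324). None of the 52 summits in the transcript was above the list median, and their highest score was 737. The 7 downstream summits had a median of 613. The 3 best scored summits of the domain were all downstream, at 99214618 (score 1877), 99216921 (1296) and 99215423 (791), which is 2808, 505 and 2003 bp past the gene end. The 2 widest peaks were intronic and weak. The first, chr5:99228731-99231277, was the third widest of the catalog at 2547 bp and held 7 summits of at most 367. The second, chr5:99224495-99226886, spanned 2392 bp with 6 summits of at most 524.

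The promoter of Rasgef1b-201 was a separate, strong site. A single-summit peak of score 2087 covered it (chr5:99252713-99253244), in an extended region of 3 summits. Between that region and the domain lay 2 others, a region of 9 summits, also with a median score of 282, whose extended boundary was 182 bp from the domain, and a region of 1 summit with a score of 968 (chr5:99247861-99249476). Annotation also gives 6 transcripts that start far upstream, between 99728812 and 99729065. The nearest peak to any of them was 149804 to 150057 bp away, at chr5:99578777-99579008 (score 990). Of the 2 annotated starts inside the gene near the domain, that of Rasgef1b-208 lay 48 bp from a domain peak of score 573, and that of Rasgef1b-207 lay in a peak of the 9-summit region (best score 298).

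The Tnfaip2 domain held the whole gene. It covered chr12:111440907-111459621 (18715 bp) on the plus strand with 36 summits in 26 peaks, and peaks filled 61.0% of its length. Its outer peaks reached from 862 bp before the start at 111442469 to 3903 bp past the end at 111455018. Introns held 23 of the summits (median score 282), coding exons 3, the 3' UTR 3, the 5' UTR 1, the upstream flank 1 and the downstream flank 5.

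The strongest summits stood at both edges of Tnfaip2, with mostly weak ones between them. The exceptions above the list median were intronic summits at 111444238 (score 845) and 111449474 (score 780). Its median score was 332.5 (interval 250 to 430), and single summits lay between 167 and 1812. The best summit was in the peak over the start (111442528, score 1812), the next lay 675 bp upstream of it (111441794, score 1773), and the third lay 1016 bp past the gene end (111456034, score 1670). The widest peak, chr12:111445005-111446831, ranked 11 by width in the catalog (1827 bp), and none of its 6 summits exceeded 341. The next widest, chr12:111454327-111455496, ran across the gene end over 1170 bp with 1 summit of score 623. Each of the 10 annotated start positions of Tnfaip2 lay in a domain peak, with best scores from 189 at that of Tnfaip2-209 to 1812 at the shared peak of Tnfaip2-201 and 3 other transcripts.

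The Plek domain sat at the 3' end of its gene. It covered chr11:16965280-16979290 (14011 bp) on the minus strand with 29 summits in 19 peaks, and peaks filled 74.6% of its length. All 29 came from 1 merged peak call, which ran on with 3 further summits in the next region. The principal transcript, Plek-202, starts at 17008702 and ends at 16971206. The domain peaks stopped 30112 bp short of that start and reached 5226 bp past the end, so 13 of the 29 summits were downstream of the gene, 11 intronic and 5 in the 3' UTR.

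Scores in the Plek domain ran from 121 to 1094 with a median of 341 (interval 258 to 439), and none was above the 75th percentile of the list. The 3 best summits were downstream, at 16969832 (score 1094), 16968052 (945) and 16969216 (748), respectively 1374, 3154 and 1990 bp past the end. The other downstream summits were low, so that the median there was 274 against 393 in the transcript. The widest peak, chr11:16965980-16967853 (1874 bp, rank 10 in the catalog), was also downstream and its 4 summits reached at most 258. The next, chr11:16970334-16971448 (1115 bp), spanned the gene end with 4 summits of at most 341.

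Summits continued through Plek towards its promoter. The regions next to the domain on that side held 5, 12, 5, 5, 2 and 1 summits, with medians of 290, 274, 196, 1141, 1200 and 1916. The region of 12 also held summits of 1284 and 1200. The last is the promoter peak of Plek-202 (chr11:17008577-17008874, score 1916). Plek-203 starts in a peak of score 1568, whereas the far start of Plek-201 at 17052381 was 39208 bp from the nearest peak. Scores were thus highest in the part of the gene nearest to the promoter. With 1000 bp in place of 700 bp added to each peak, the domain joined its neighbours and held 51 summits.

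**Figure D1:**
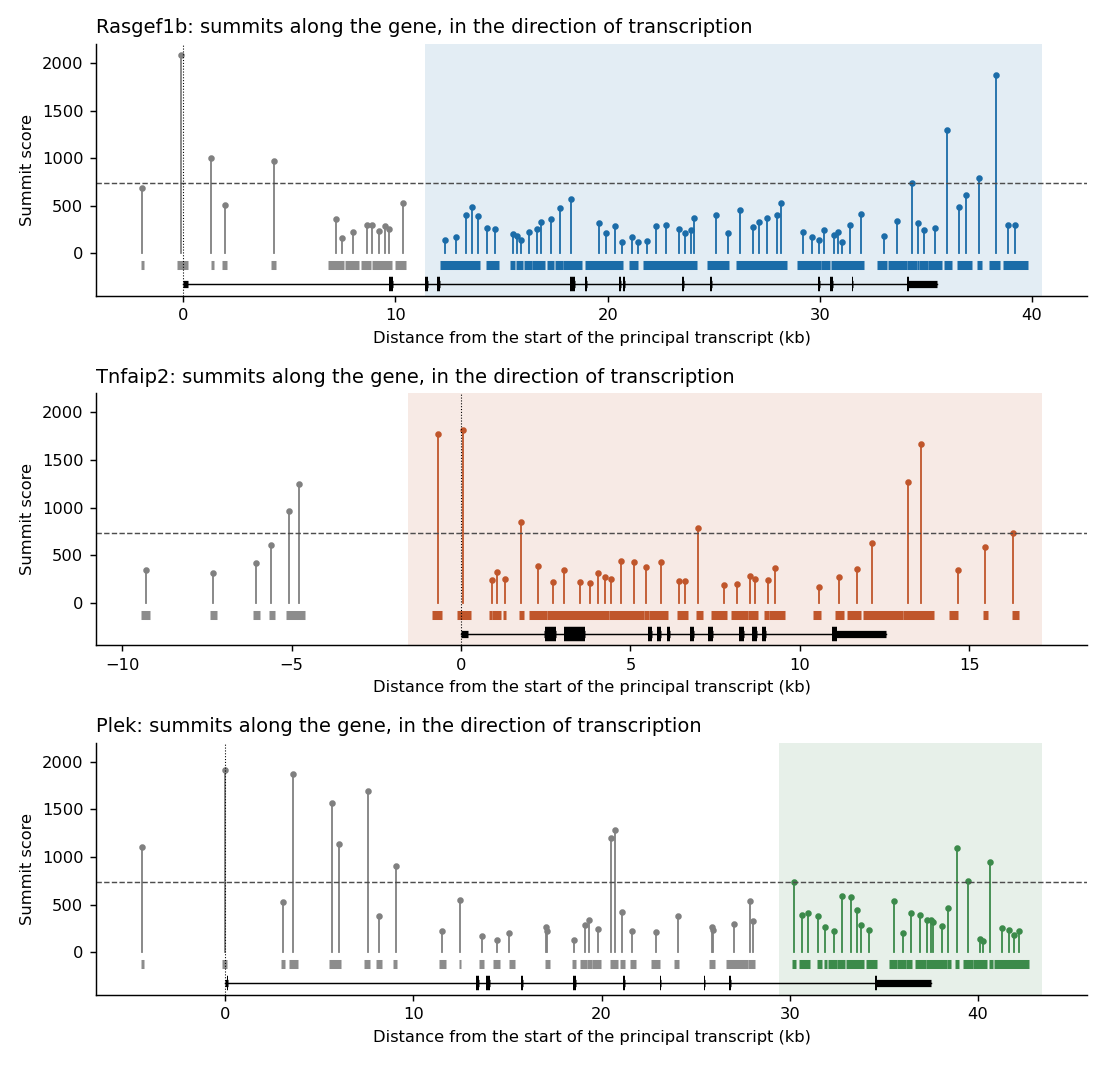
Score of each summit (vertical axis, scale not stated) against distance from the start of the principal transcript in kb, in the direction of transcription. Coloured points lie in the main extended region (shaded) and grey points outside it, bars below show reference peaks, the black line shows the transcript with exons (thick: coding), and the dashed line is the median of all summits (737). Within the domains most scores along the transcripts are low, the promoters of Rasgef1b (2087) and Plek (1916) and other high summits of the Plek transcript (up to 1877) lie outside the domains, and domain peaks end at most 5226 bp past the gene end.

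The map of summits along the genes shows what the genes share: a strong promoter summit, a domain of mostly low summits, and a stop shortly after the gene end. The gene end lay in a reference peak in 3 of 3 genes, compared with 184 of 17405 protein-coding genes of 5000 bp or more (1.06%). In a list of 20 early LPS response genes of any length, 9 had their end in a peak. The principal start also lay in a peak in 3 of 3, compared with 47.9% of those genes. The choice by summit number favours a peak at the gene end, since a long domain is more likely to cross it. The start peaks of Rasgef1b and Plek lie outside their domains. In the 5000 bp after the end the genes held 7, 5 and 13 summits (Rasgef1b, Tnfaip2 and Plek), and 632 of the 17405 genes (3.63%) held 3 or more there. Beyond that, from 5 to 10 kb after the end, none of the 3 genes held a summit, although a peak still covered 4.52% of that stretch in Plek. How many of all genes lack a summit there was not computed, and the median gene held 0 already in the first 5000 bp.

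Along the transcript the genes differed from each other. In Rasgef1b, peaks covered 49.3% of the principal transcript on the start side of its midpoint and 85.3% on the end side. Plek had 22.8% and 55.8%. Tnfaip2 ran the other way, with 79.7% and 63.3%. Among the 963 genes with 10 or more summits in the principal transcript, the end side held a median of 40% of them (interquartile range 27.3% to 55.6%), against 59.4% in Rasgef1b, 43.3% in Tnfaip2 and 65.2% in Plek. By summits per kb of transcript, the ranks among all 17405 genes were 4 for Rasgef1b, 1 for Tnfaip2 and 10 for Plek, a measure close to the one that chose them.

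**Figure D2:**
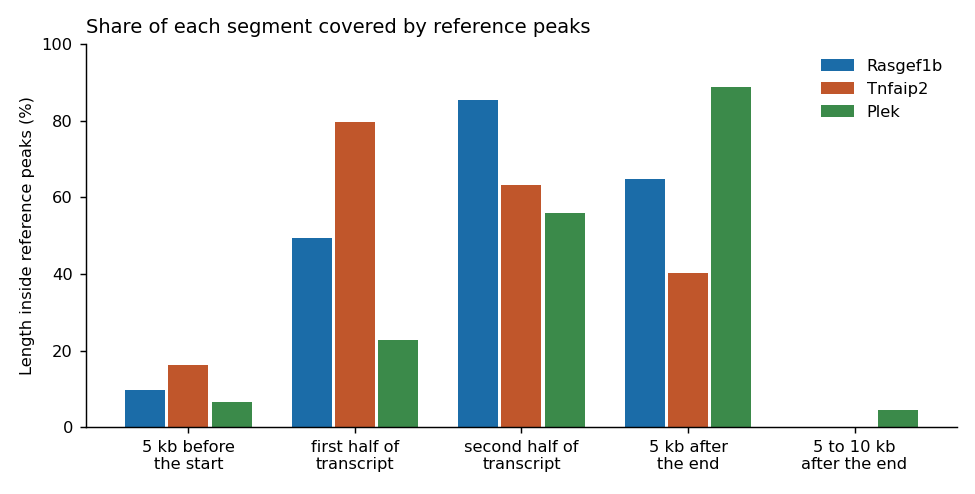
Percent of each segment's length inside reference peaks for Rasgef1b, Tnfaip2 and Plek, with the transcript divided at its midpoint. Coverage is highest on the end side of the midpoint for Rasgef1b (85.3%), on the start side for Tnfaip2 (79.7%) and in the 5 kb after the end for Plek (88.8%).

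The plot of coverage by segment places the largest share of Plek behind the gene end, at 88.8% of 5 kb, compared with 64.8% for Rasgef1b and 40.4% for Tnfaip2. The 5 kb before the starts were covered to 9.64%, 16.4% and 6.72% in Rasgef1b, Tnfaip2 and Plek. No value here separates the stimuli or the time points, and whether transcription through these genes moved with the signal was not tested.

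Compared with the catalog as a whole, the domains were made of many weak summits. Scores fell below the 25th percentile of the list for 50 of 59 summits in Rasgef1b (84.7%), 27 of 36 in Tnfaip2 (75%) and 22 of 29 in Plek (75.9%). The median score was below that percentile in 3 of 3 domains, and in 12891 of all 59617 extended regions (21.6%). Among the 52 extended regions with 10 or more summits, 17 had such a median. Many summits therefore do not go with weak summits in every region, and only 6, 8 and 9 of the 52 had a lower median than Rasgef1b, Tnfaip2 and Plek.

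Low medians were not particular to the 3 genes. The regions with 19 to 25 summits, over Mx1 (182), Tnfaip3 (376), Mrnip and Sqstm1 (234), Cd83 (349.5), Il1b (278) and Nfkbiz (242), all had medians below 486 too, and were named after their values were seen. The region just below the threshold of 29 summits had a higher median than these. The domain of Acod1, which encodes the LPS-inducible enzyme that makes itaconate, held 28 summits (chr14:103046015-103061540) with a median of 690.5, and 35.7% of them were below the 25th percentile. Plek, with 29, was exactly at the threshold. Only 4 of all extended regions (0.00671%) reached it, and the remaining one, Sfi1 with 122 summits and a median of 905.5 (chr11:3122749-3184672), is not among the genes described. Most extended regions (43841, 73.5%) held 1 summit.

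**Figure D3:**
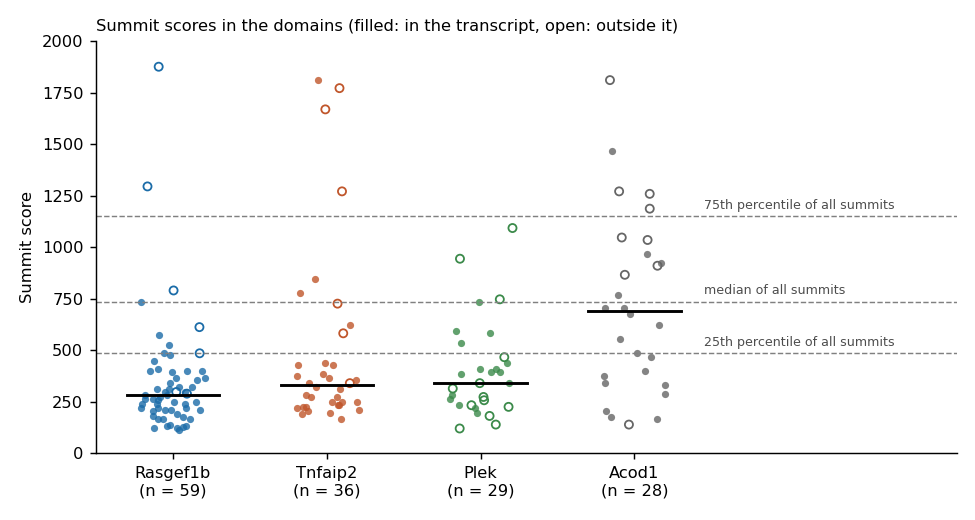
Summit scores (vertical axis, scale not stated) in the main extended regions of Rasgef1b, Tnfaip2, Plek and Acod1. Each point is a summit, filled in the principal transcript and open outside it, black lines are medians (282, 332.5, 341 and 690.5), and dashed lines are the quartiles of all summits. Most points of the first 3 genes lie under the lowest dashed line (486), with a few open points far above it.

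The plot of scores by domain also shows that high scores within the domains were mostly outside the transcript. In Rasgef1b and Plek, 3 summits each exceeded the list median and all of them were downstream. In Tnfaip2, 6 did, of which 3 lay in the transcript. Retaining summits at or above the list median and joining their peaks again left at most 4, 2 and 4 summits in any extended region over Rasgef1b, Tnfaip2 and Plek, which follows from the few summits above that median. Peaks with several summits numbered 13 in Rasgef1b, 5 in Tnfaip2 and 5 in Plek, although 97.5% of all peaks held 1. Counting peaks in place of summits gave 28, 26 and 19, and by that count the region of Tnfaip3 also held 19 and that of Acod1 18.

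**Figure D4:**
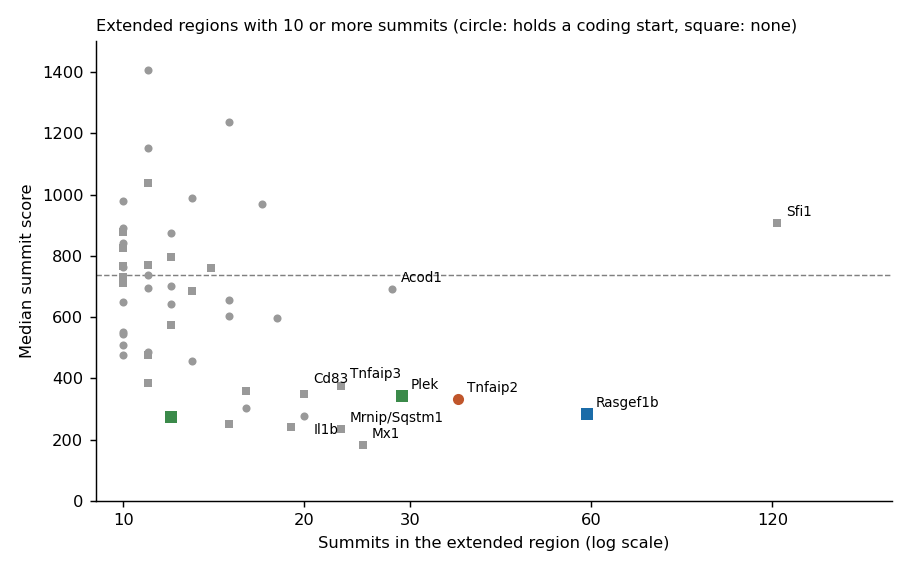
Number of summits (log scale) against median summit score for the 52 extended regions with 10 or more summits, named from 20 summits by the protein-coding gene overlapped. Circles hold the start of a protein-coding gene and squares do not, the dashed line is the median of all summits (737), and the unnamed green square is a second region of Plek with 12 summits. The 3 domains lie at the low end of the score axis, whereas Acod1 (690.5) and Sfi1 (905.5) lie higher.

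The plot of dense regions shows which other genes had this layout. Of the 52 regions, 28 held a coding start, 29 a gene end, 16 both, and 13 an end without a start, as Rasgef1b and Plek did. The likeness of regions was measured over the 812 with 5 or more summits, as the distance between z scores of log2 width, summits per kb, share of length in peaks and median score. The closest to Plek was Mx1, an interferon-induced GTPase (distance 1.09, 25 summits, median score 182), followed by Il1b, the cytokine interleukin-1 beta (1.42), and Cd83, a surface glycoprotein of activated antigen-presenting cells (1.57). Tnfaip2 was closest to Acod1 (1.43), the region of Mrnip and Sqstm1 (1.45) and Mx1 (1.52). Rasgef1b had Tnfaip2 (2.47) and Plek (2.54) as its nearest neighbours and Mx1 (2.95) as the third.

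The densest regions of gene relatives are given as a description. Only 4 of all extended regions reached 29 summits, the number that chose the genes, so no relative could match it. In the Ras GEF family, the densest region over Rasgef1a and over Rasgef1c held 1 summit. Among relatives of Tnfaip2 the numbers were 2 for Exoc3, 4 for Exoc3l, 1 for Exoc3l2 and 6 for Exoc3l4, and Plek2, the paralog of Plek, had 1. In the early LPS response list, all 20 genes had a start peak and the densest region held a median of 11.5 summits (2 to 28), with 11 of 20 at 10 or more. Over all 21938 protein-coding genes the median was 1 and 60 genes (0.273%) reached 10. The highest of the list was Acod1, just under the 29 of Plek.

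Few summits belonged to neighbouring genes. Exoc3l4 starts 25452 bp from Tnfaip2 with a peak of score 685 and 6 summits in its body. Lbhd2 and Gm266, also within 50 kb of the Tnfaip2 start, and Cnrip1, whose start is 795 bp from the far start of Plek, had no summit. The main domains held 52 of 105 summits in the Rasgef1b window (49.5%), 36 of 57 in that of Tnfaip2 (63.2%) and 16 of 47 in that of Plek (34%). The windows end at the gene end of Rasgef1b and Plek, so the downstream summits of these domains, 7 and 13, lie outside them. Outside the main domain the median score was 534 in the Rasgef1b window, 685 in that of Tnfaip2 and 332 in that of Plek.

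Base composition differed among the domains. The median GC content within 100 bp of a summit was 46.3% in Rasgef1b, 56.2% in Tnfaip2 and 41.3% in Plek, against 50.2% over all summits. Tnfaip2 windows ranged from 50.2% to 66.2% and Plek windows from 33.3% to 50.2%, so these ranges met only at their limits. The median ratio of observed to expected CpG was 0.218, 0.249 and 0.0896, against 0.242 over all summits. Repeats soft-masked in the genome filled 50% or more of the window at 7 Rasgef1b summits (11.9%), 1 of Tnfaip2 (2.78%) and 2 of Plek (6.9%), compared with 6.15% of all. Each of the 124 summits lay in a 76-base stretch, the read length, that occurs once in the genome.

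The promoters differed as well. The 250 bases before the first RefSeq or GENCODE base of the transcript had a GC content of 72.4% in Rasgef1b, 59.6% in Tnfaip2 and 38% in Plek, beside a median of 52.4% over 32851 promoters in the RefSeq set on GRCm38.p6. The observed to expected CpG ratios were 0.888, 0.586 and 0.444, beside 0.373. They are shown, on the strand of the gene, since each is partly or wholly in the strong peak at the start. Reference peaks covered 250, 110 and 156 of these bases (chr5:99252928-99253177, chr12:111442200-111442449 and chr11:17008719-17008968). None of the 12 motifs matched, so they hold no capitals, whereas 47.4% of the RefSeq promoters held at least 1 in these bases.
Rasgef1b promoter: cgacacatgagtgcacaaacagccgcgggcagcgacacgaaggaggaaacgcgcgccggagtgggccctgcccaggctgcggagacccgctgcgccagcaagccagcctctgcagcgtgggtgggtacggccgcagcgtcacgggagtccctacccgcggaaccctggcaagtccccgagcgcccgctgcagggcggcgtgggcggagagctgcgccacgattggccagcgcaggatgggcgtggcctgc
Tnfaip2 promoter: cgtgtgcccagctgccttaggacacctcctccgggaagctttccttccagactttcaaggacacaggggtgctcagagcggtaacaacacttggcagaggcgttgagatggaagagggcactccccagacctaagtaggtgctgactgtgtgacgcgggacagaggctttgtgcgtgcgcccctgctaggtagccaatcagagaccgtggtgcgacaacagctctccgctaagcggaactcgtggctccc
Plek promoter: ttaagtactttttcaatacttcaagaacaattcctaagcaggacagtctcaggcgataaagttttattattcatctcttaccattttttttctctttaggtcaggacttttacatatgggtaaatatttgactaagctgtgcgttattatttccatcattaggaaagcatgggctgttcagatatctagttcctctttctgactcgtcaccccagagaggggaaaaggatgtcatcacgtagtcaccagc

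Motif matches were fewer under the domain summits than in the catalog. Any of the 12 motifs occurred within 100 bp of 24 of 59 Rasgef1b summits, 15 of 36 Tnfaip2 summits and 13 of 29 Plek summits, together 52 of 124 (41.9%), compared with 58.7% of all summits. Summits below the 25th percentile of score had a match in 39 of 99 cases in the domains (39.4%) and in 57% of cases over the catalog. The other 49 regions with 10 or more summits, however, held a match at 295 of 771 summits (38.3%), close to the domains.

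By motif, AP-1 matched 11 of 124 domain summits (8.87%, 95% Wilson interval 5.03% to 15.2%), and 15.9% of all. PU.1/ETS matched 5 (4.03%, 1.73% to 9.09%) and 9.08% of all. Within 100 bp, the AP-1 share of the catalog lies above the interval, and that of PU.1/ETS just inside it. AP-1 was also lower in the domains within 50 bp (7.26%, 11.6% of all) and 200 bp (12.1%, 18.6% of all). No interval is given for those windows, so whether the catalog share lies outside it there was not tested. SP/KLF (GGGCGGGG) matched 3 summits, all in Tnfaip2 (2.42%, 0.826% to 6.87%), and its catalog share of 7.15% also lies above the interval. Among catalog summits below the 25th percentile of score, the shares were 17.2% for AP-1, 6.65% for PU.1/ETS and 2.6% for SP/KLF. C/EBP (14.5%, 9.38% to 21.8%) and STAT, the TTCNNNGAA spacing (8.06%, 4.44% to 14.2%), were above the catalog shares of 11.4% and 6.35%, which lie within the intervals. For STAT the direction turned within 50 bp, with 1.61% in the domains and 3.2% over all summits. NF-kB matched 5 summits (4.03%, 5.55% of all), STAT6 5 (4.03%, 6.81%), RUNX 7 (5.65%, 7.91%) and IRF 3 (2.42%, 3.64%). CRE (TGACGTCA), the MiT E-box (TCACGTGA) and CTCF matched 0 of 124. The upper limit for a count of 0 is 2.42% by the 3-count rule and 3% by the Wilson interval drawn in the plot. They were found at 0.938%, 0.496% and 3.03% of all summits. Intervals cover counting error only and treat the 124 summits as independent, although neighbouring windows of a domain can overlap. Shares by motif are not given for the other 49 dense regions. Whether a gap in any single motif is particular to the 3 domains was therefore not tested.

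**Figure D5:**
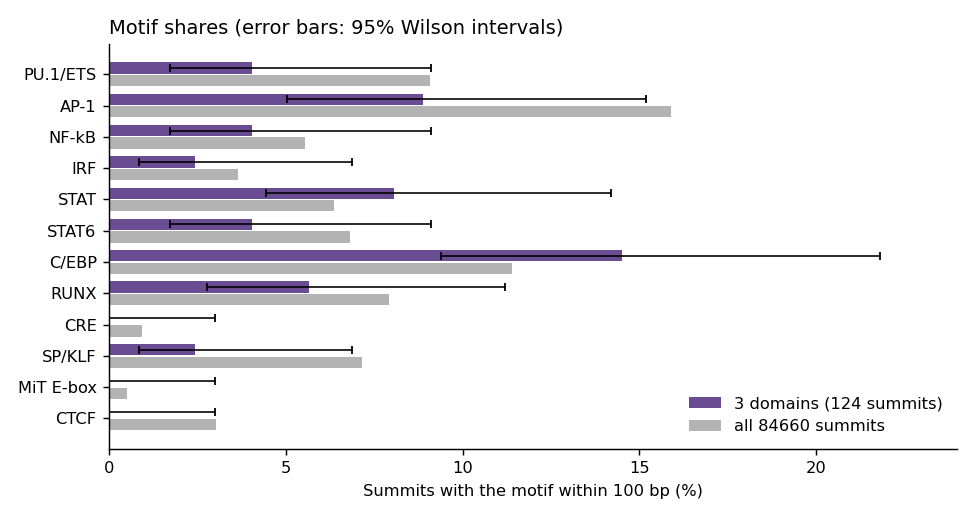
Percent of summits with each of 12 motifs within 100 bp, for the 124 summits of the 3 domains (purple, with 95% Wilson intervals) and for all 84660 summits (grey). AP-1 (8.87% against 15.9%) shows the widest gap between the bars, and CRE, the MiT E-box and CTCF have no match in the domains.

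Single matches can be placed on the map of the genes. The plot of motif shares pools sites of very different score. The 3 PU.1/ETS matches at summits at or above the list median were those 675 bp upstream of Tnfaip2 (score 1773), downstream of Rasgef1b (99216921, score 1296) and at the promoter side of the Plek domain (16978494, score 737). Of the 11 AP-1 matches, 10 lay at summits below the 25th percentile and 1 at the strong site past the end of Tnfaip2 (score 1670), which also held an NF-kB match. The strongest downstream sites of Rasgef1b (99214618, score 1877) and Plek (16969832, score 1094) had no match to any of the 12 motifs.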

How the data were processed

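The authors trimmed 76-base single-end ATAC-seq reads (Trimmomatic 0.39), aligned them to mm10 with ShortStack and handled alignments with SAMtools 1.9. Peaks were called with MACS2 2.2.6, which also called summits, without a local background and with duplicate reads kept. How these settings bear on the summit numbers and scores of the domains was not tested. Reference peaks were those that passed a strict q-value cut and were shared between replicates, pooled over all conditions. The deposited score of each summit has no stated scale, and the lists hold no counts or library columns, so no test between stimuli, times or replicates was made and depth per library is unknown.

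Extended regions were rebuilt from peaks plus 700 bp, and all 59617 matched to the base. Genes came from GENCODE M21, the principal transcript by APPRIS, sequence from GRCm38.p6, and promoter composition from RefSeq. Members, lists and motifs were chosen with earlier results of these data known, and summit number chose the members, so values are descriptions. Named items were, per gene, the 3 best scored summits, the 2 widest peaks, annotated starts, neighbouring coding genes and the 3 most alike regions. Sequences came from the summit with the most motifs and that nearest the start, with windows holding a UTR left out after the values were seen. Intervals are 95% Wilson or order-statistic intervals. Calculations (Python 3.11.15, numpy 2.4.6, pandas 2.3.3, scipy 1.17.1) were tested on simulated data. Alternatives changed the flank, the gene window, the score minimum, the motif window and the summit unit.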

Additional observations from a re-analysis of the deposited data

How the results depend on the processing

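Of 82 alternative values, 56 stayed within 1.5 times the count or within the interval and 26 moved. Keeping summits at or above the list median left 4, 2 and 4 summits in the densest region of Rasgef1b, Tnfaip2 and Plek, and 22, 15 and 10 in their gene windows. Counting peaks gave 28 in Rasgef1b and 19 in Plek, and a flank of 1000 bp gave 51 in Plek. With a flank of 350 bp the Tnfaip2 domain fell into 4 pieces, the largest with 27 summits, which is under the 29 that chose the genes and ranked 6 among all regions joined that way. The median score of Rasgef1b was 332.5 over the best summit of each peak and 358 over the gene window. GC content was 44.9% in Rasgef1b and 40.4% in Plek within 200 bp, and 54% in Tnfaip2 within 50 bp. Within 50 bp the motif shares were 0.806% for IRF and SP/KLF, 1.61% for STAT and STAT6, 8.87% for C/EBP and 2.42% for RUNX, and STAT6 was 1.37% at the best summit of each peak. Summits in the whole gene body numbered 105 for Rasgef1b, 47 for Plek, 2 for Exoc3l, 4 for Exoc3l2 and 2 for Plek2. The smaller motif window and the score minimum can only lower the shares and counts, and for the other values the cause was not tested. No paired analysis was possible because the lists carry no library columns, and leaving out a replicate could not be run for the same reason.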
